A study of Homo sapiens with 6 samples.

Results

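The AP-1 subunits and EGR1 were examined in Huh7-R cells, a pool of cells derived from the hepatocellular carcinoma line Huh7 by long-term exposure to sorafenib. The genes were taken by symbol as FOS, FOSB, FOSL1, FOSL2, JUN, JUNB, JUND, ATF3 and EGR1, and all 9 were found among the 16305 genes of the RNA-seq tables. The cells of both groups, called Huh7SR in the sample labels, had been kept in sorafenib until it was withdrawn some days before the experiment. They then received fostamatinib, an inhibitor of spleen tyrosine kinase, at 2 µM for 24 h in 3 samples, or DMSO, the vehicle, for 24 h in 3 samples. The paper reports no detectable protein of this kinase in Huh7 cells and leaves the direct targets of the drug open. Its Western blots of Huh7 and resistant cells, at a higher dose and shorter time, showed less phosphorylation of ERK, AKT, STAT3, EGFR and JNK. The labels write 2 µM for the DMSO samples as well. Huh7-R is a pool and not a single clone, so a value is an average over cells that may differ. The labels state that each treatment was applied in triplicate, without saying whether independent cultures were used, so the spread behind each p-value may be technical. In bulk RNA, fewer cells that express a gene and less RNA of it per cell cannot be told apart.

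AP-1 is a family of dimeric transcription factors whose subunits share a basic region, which contacts DNA, and a leucine zipper, which holds the dimer together. FOS proteins do not pair with each other and bind DNA with a JUN partner, while JUN proteins also pair among themselves. Many of these genes, like EGR1, are immediate early genes, switched on within minutes by growth factors through the ERK and JNK kinases and often back to low levels within hours. In liver, JUN is known for its part in regeneration and tumor formation.

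Each library held between 13303451 and 15272737 reads on genes. Replicates correlated at 0.995 to 0.996 over 12249 well-covered genes, against 0.964 to 0.967 for samples across groups, and no library stood apart. All 10 hepatocyte markers examined were measured and called higher after fostamatinib, with a summed CPM (read counts scaled to the library size) of 4973 to 5307 with DMSO and 6637 to 7045 with the drug. Their log2 fold changes ran from 0.215 to 3.19, with a median of 0.44. Among all genes 23.3% were called higher and 24.5% lower, and the counts of each marker list are to be read against these shares. Of the fibroblast markers 5 of 6 were measured, without DCN, at a summed CPM of 297 to 305 and 308 to 311, with 2 called higher and 1 lower. Of the endothelial markers 1 of 5 was measured (PECAM1, 6.10 to 6.93 and 8.72 to 9.89, called higher), and CDH5 and VWF were not in the tables used here. Of the immune markers 2 of 6 were measured (LYZ and CD14, summed at 9.76 to 11.1 and 9.60 to 11.7, neither called), and PTPRC was not in the tables used here. The part of these markers in the results was not tested.

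After fostamatinib, 5 of the 9 genes were lower and 1 was higher than with DMSO (adjusted p-value under 0.05 from limma with Benjamini-Hochberg adjustment over 16305 genes). FOSL1 fell most, followed by FOS and ATF3, and JUN and JUNB fell by less. FOSL2 rose, and FOSB, JUND and EGR1 did not pass the test. The drug moved a large share of all genes in these cells. Of the 16305 genes 47.8% were called, 24.5% lower and 23.3% higher, and the counts of the 9 genes are to be read against these shares. A change of more than 2-fold was called for 3 of the 9 genes (FOSL1, FOS and ATF3), against 7.13% of all genes. In 6 of the 9 genes the samples of the groups did not overlap, against 54.1% of all genes. Deeper genes were called more often. By mean reads the share called was 31.4% from 20 to 60 (the depth of FOS, FOSB and EGR1), 51.8% from 100 to 300 (FOSL1), 59.9% from 300 to 1000 (JUNB and ATF3) and 69.0% from 1000 to 3000 (JUN, JUND and FOSL2), so 6 of 9 is near the share at these depths. The median log2 fold change of the 9 genes was -0.65, and that of all genes 0.002. The count of 6 called genes was the same in each of 14 alternative fits, in which the adjusted p-values of these 6 genes reached at most 0.00594, for FOSL2.

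**Figure D1:**
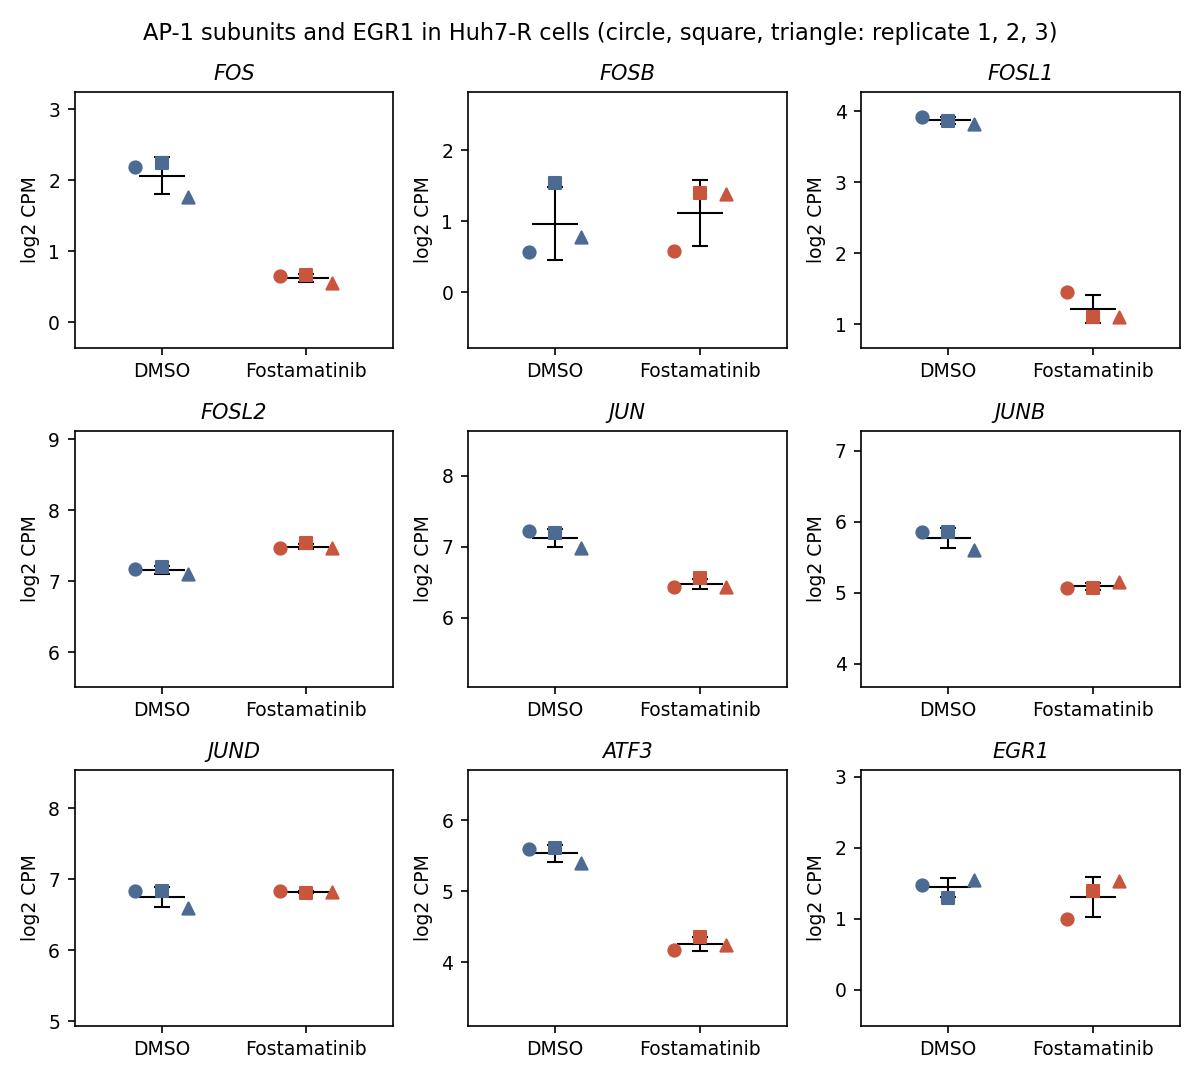
Log2 CPM (y axis, the same span in each panel) of the 9 genes in the 3 DMSO and 3 fostamatinib samples, with the mean and SD of each group in black. FOSL1, FOS, ATF3, JUN and JUNB lay lower after fostamatinib in every sample, FOSL2 lay higher, and the groups overlapped for FOSB, JUND and EGR1.

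FOSL1 encodes FRA-1, a FOS protein without the transactivation domain of FOS, known in epithelial tumors for invasive growth and for its dependence on ERK. In GRCh37, the build of all positions of genes given here, FOSL1 (ENSG00000175592) spans 65659520 to 65668044 of chromosome 11, - strand. With DMSO its read numbers were 208, 222 and 209, and with fostamatinib they were 37, 30 and 28. All 3 treated samples lay far below all 3 controls, with a gap of 2.37 on the log2 scale between the nearest samples. The group means were 3.87 ± 0.051 and 1.22 ± 0.20 log2 CPM, the log2 of the read count scaled to the library size (SD, n = 3 each). FOSL1 was 6.28-fold lower, which is -2.65 ± 0.15 on the log2 scale (fitted difference ± standard error here and in what follows; limma adjusted p = 3.04e-17), and only 0.58% of all genes changed by more in either direction.

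FOS, the founding member of the family (ENSG00000170345, chromosome 14 from 75745529 to 75748933, + strand), was expressed at a low level. It had 62, 72 and 50 reads with DMSO and 21, 22 and 19 after fostamatinib. The groups were separate, and DMSO replicate 3 lay closest to the treated samples. FOS was 2.72-fold lower (-1.45 ± 0.22 on the log2 scale, limma adjusted p = 7.24e-07). FOSB, which like FOS carries a transactivation domain (ENSG00000125740, chromosome 19 from 45971253 to 45978437, + strand), had 20, 44 and 25 reads with DMSO and 20, 37 and 34 after fostamatinib. The groups overlapped over nearly their whole range. The log2 fold change of 0.15 had a 95% interval from -0.39 to 0.70 (adjusted p = 0.671, limma), which includes both a small fall and a moderate rise of FOSB.

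FOSL2 encodes FRA-2, the close relative of FRA-1, and was by reads the most abundant gene of the FOS family (ENSG00000075426, chromosome 2 from 28615315 to 28640184, + strand). It had 1986, 2244 and 2037 reads with DMSO and 2432, 2637 and 2339 after fostamatinib. On the normalized scale every treated sample lay above every control. The rise was small, from 7.16 ± 0.052 to 7.49 ± 0.039 log2 CPM (SD, n = 3 each), or 1.26-fold (0.33 ± 0.043 on the log2 scale, limma adjusted p = 5.61e-08). Of all genes 42.2% changed by more. FOSL2 was the only one of the 9 genes that was called higher.

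JUN, the partner that binds DNA with FOS proteins or as a homodimer, and a substrate of JNK (ENSG00000177606), is on chromosome 1 from 59242517 to 59249720 on the - strand. It had 2050, 2227 and 1885 reads with DMSO and 1193, 1346 and 1148 after fostamatinib. The groups were separate, and JUN remained well expressed after treatment. JUN was 1.57-fold lower (-0.65 ± 0.053, limma adjusted p = 1.10e-12). JUNB, a weaker activator that can oppose JUN (ENSG00000171223, chromosome 19 from 12902300 to 12904129, + strand), had 795, 879 and 723 reads with DMSO and 462, 475 and 469 after fostamatinib. It fell by nearly the same amount as JUN, at -0.68 ± 0.066 (limma adjusted p = 1.04e-10), and the 95% intervals of the genes overlapped (-0.76 to -0.54 for JUN and -0.81 to -0.54 for JUNB). In the annotation 259 bases of JUNB lie in an exon of HOOK2 on the opposite strand. Whether the counting used strand is not given in the sources used here, and HOOK2 rose by 0.51 on the log2 scale (adjusted p = 2.00e-05, limma).

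JUND, the subunit that is known to be expressed most steadily and to restrain growth in several cell types (ENSG00000130522), is on chromosome 19 from 18390504 to 18392432 on the - strand. It had 1569, 1737 and 1434 reads with DMSO and 1567, 1599 and 1506 after fostamatinib. The treated samples lay within 0.022 log2 CPM of each other, at the level of DMSO replicates 1 and 2. The log2 fold change of 0.07 had a 95% interval from -0.034 to 0.18 (adjusted p = 0.270, limma), and without DMSO replicate 3 it was -0.008. At its depth of 1434 or more reads a change as large as that of JUN or JUNB lay outside this interval.

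ATF3, a stress-induced bZIP factor that pairs with JUN and represses as a homodimer (ENSG00000162772), is on chromosome 1 from 212738676 to 212794119 on the + strand. It had 667, 744 and 625 reads with DMSO and 248, 292 and 250 after fostamatinib. All treated samples were far below all controls, with a gap of 1.04 on the log2 scale. ATF3 was 2.42-fold lower (-1.28 ± 0.074, limma adjusted p = 1.37e-16). EGR1, a zinc finger factor and not a subunit of AP-1 (ENSG00000120738), is on chromosome 5 from 137801168 to 137804992 on the + strand. It had 38, 37 and 43 reads with DMSO and 27, 37 and 38 after fostamatinib. The groups overlapped, and fostamatinib replicate 1 was the lowest sample. The log2 fold change of -0.13 had a 95% interval from -0.57 to 0.31 (adjusted p = 0.645, limma) and became 0.024 without that sample. Among the 1715 genes with a mean from 20 to 60 reads, where EGR1, FOSB and FOS lie, the median standard error was 0.23. FOS was called at this depth. The interval of EGR1 did not reach the fitted falls of JUN (-0.65) and JUNB (-0.68), but it overlapped the intervals of both.

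**Figure D2:**
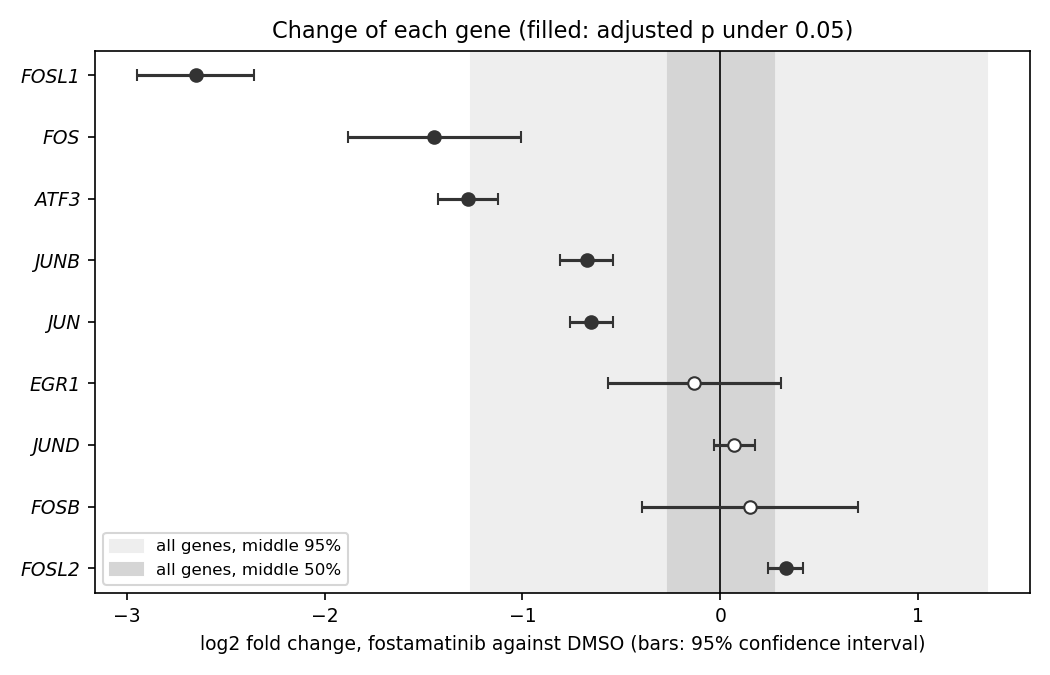
Log2 fold change of each of the 9 genes (points) with its 95% confidence interval (bars), over the range of all 16305 genes (pale band, middle 95%, from -1.26 to 1.35, and darker band, middle 50%, from -0.27 to 0.27). Filled points had an adjusted p-value under 0.05. FOSL1, FOS and ATF3 lay beyond the lower end of the pale band.

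To compare the genes with each other, CPM was divided by the length of all exons of a gene in kb. On this scale of levels per kb the JUN family was more abundant than the FOS family. With DMSO the order was JUND (56.0 ± 5.19), JUN (38.8 ± 3.29), JUNB (29.9 ± 2.84), FOSL2 (19.9 ± 0.72), ATF3 (11.6 ± 0.94), FOSL1 (7.72 ± 0.27), FOS (1.316 ± 0.23), EGR1 (0.86 ± 0.077) and FOSB (0.36 ± 0.14; SD, n = 3 each). After fostamatinib it was JUND (58.7 ± 0.48), FOSL2 (25.1 ± 0.67), JUN (24.6 ± 1.24), JUNB (18.6 ± 0.62), ATF3 (4.78 ± 0.31), FOSL1 (1.22 ± 0.18), EGR1 (0.79 ± 0.15), FOS (0.47 ± 0.019) and FOSB (0.40 ± 0.12; SD, n = 3 each). The neighbours FOSL2 and JUN after fostamatinib, and FOS and FOSB after fostamatinib, did not differ beyond their spread. With the length of the longest transcript in place of all exons, ATF3 came to 22.1 with DMSO, just above FOSL2 at 21.3, and JUN after fostamatinib came to 27.4, above FOSL2 at 26.7, so the order of these genes depended on the length used.

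The make-up of each family differed between the groups. FOSL1 made up 26.8%, 25.5% and 26.7% of the summed FOS family level with DMSO and 5.31%, 3.998% and 4.197% after fostamatinib. FOSL2 made up 67.5%, 67.9% and 68.5% with DMSO and 91.9%, 92.6% and 92.4% after fostamatinib. The replicates of a group differed by at most a few percentage points, far less than the groups. The share of FOS moved from 4.47% ± 0.61 to 1.74% ± 0.049 of the family (SD, n = 3 each). The summed level of the FOS family differed less, at 29.8, 30.2 and 27.9 per kb with DMSO and 26.9, 27.9 and 26.7 after fostamatinib, with the nearest samples of the groups almost equal. In the JUN family JUND made up 44.9%, 45.1% and 44.8% of the summed level with DMSO and 58.3%, 56.8% and 57.7% after fostamatinib. The share of JUN moved from 31.1% ± 0.29 to 24.2% ± 1.12 and that of JUNB from 23.9% ± 0.13 to 18.3% ± 0.59 (SD, n = 3 each). The summed JUN family level was 132, 131 and 112 per kb with DMSO and 101, 102 and 102 after fostamatinib. The log2 ratio of the FOS to the JUN family was -2.08 ± 0.077 with DMSO and -1.91 ± 0.031 after fostamatinib (SD, n = 3 each). The shares of FOSL1, FOSL2 and JUND and this ratio, 4 comparisons in all, each gave p = 0.10 in an exact two-sided permutation test, the smallest value that 3 samples against 3 allow. These comparisons are not independent of each other or of the calls of the single genes. JUND itself was not called, and its share rose as the levels of JUN and JUNB fell.

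**Figure D3:**
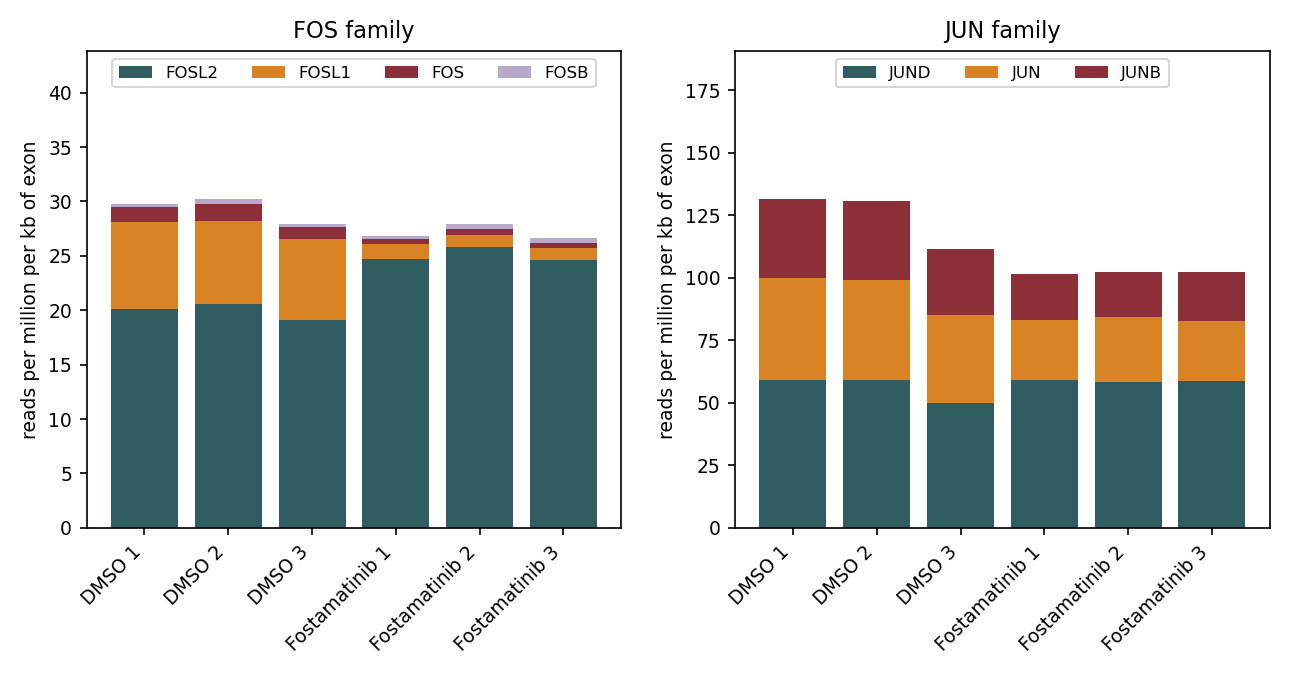
Level per kb (y axis, CPM per kb of exon) of the FOS family (left) and the JUN family (right) in each of the 6 samples, stacked by gene. FOSL1 took up 25.5% or more of each DMSO column of the FOS family and 5.31% or less of each fostamatinib column, and in the JUN family JUND took up 45.1% or less and 56.8% or more.

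Most of the 9 genes shared a pattern among the DMSO replicates. DMSO replicate 3 was the lowest of the 3 controls in 7 of the 9 genes, all but FOSB and EGR1, with a median of 0.22 below the mean of the other two on the log2 scale. Among the other immediate early genes measured it was the lowest in 14 of 21, and among all genes in 35.6%, with a median difference of 0.004. Its JUN, JUNB and JUND levels were lower together, so that the share of JUND in the JUN family was 44.8% in this sample against 44.9% and 45.1% in the others. After fostamatinib each replicate was the lowest in 3 of the 9 genes. Without DMSO replicate 3 the same count of 6 genes was called, and the log2 fold change was -0.72 for JUN, -0.76 for JUNB and -1.35 for ATF3. A cause of this pattern was not tested.

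The sequences upstream of the start sites are known to hold sites for AP-1 itself, for CREB and ATF proteins and for the serum response factor SRF. RefSeq promoters (GRCh38.p14) were found for 8 of the 9 genes, all but FOSL1. The 250 bases before the start are shown for JUN and FOS, which fell, and for JUND and EGR1, which were not called. Capitals mark matches on either strand to the AP-1 site TGANTCA, the cyclic AMP response element TGACGTCA or its core TGACGT (which the longer element contains), the JUN-type site TGACATCA, the C/EBP-ATF element TGATGNAA, the EGR site GCGNGGGCG, and the CArG box, which SRF binds.
JUN, chr1:58784048-58784297, - strand: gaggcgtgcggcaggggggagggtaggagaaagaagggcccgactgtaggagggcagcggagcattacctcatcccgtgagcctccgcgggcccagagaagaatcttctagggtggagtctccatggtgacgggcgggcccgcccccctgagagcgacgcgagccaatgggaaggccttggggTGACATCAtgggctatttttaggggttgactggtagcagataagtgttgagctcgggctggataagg
FOS, chr14:75278578-75278827, + strand: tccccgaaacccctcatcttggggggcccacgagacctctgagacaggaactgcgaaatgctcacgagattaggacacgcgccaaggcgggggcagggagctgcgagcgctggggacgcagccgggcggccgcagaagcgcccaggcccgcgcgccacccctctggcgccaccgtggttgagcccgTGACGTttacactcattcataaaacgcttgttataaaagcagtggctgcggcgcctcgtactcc
JUND, chr19:18281623-18281872, - strand: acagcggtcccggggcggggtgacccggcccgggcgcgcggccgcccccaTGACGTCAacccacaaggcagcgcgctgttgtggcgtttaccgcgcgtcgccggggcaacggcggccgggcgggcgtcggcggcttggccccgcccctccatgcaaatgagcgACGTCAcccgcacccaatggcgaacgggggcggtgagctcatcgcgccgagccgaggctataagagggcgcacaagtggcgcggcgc
EGR1, chr5:138465229-138465478, + strand: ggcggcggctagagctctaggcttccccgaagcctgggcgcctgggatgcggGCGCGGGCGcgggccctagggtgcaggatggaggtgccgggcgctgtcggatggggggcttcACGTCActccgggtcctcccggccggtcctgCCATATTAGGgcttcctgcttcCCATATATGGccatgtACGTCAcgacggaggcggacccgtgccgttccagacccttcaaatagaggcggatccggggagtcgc

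JUN held the sequence TGACATCA at 67 bases before its start, a sequence found in 2.37% of 35093 promoters of the same length. FOS held the core TGACGT from 64 bases before its start, and FOSB and FOSL2 held it at nearly the same distance, from 60 and 66 bases. This core was found in 7.10% of the promoters, and the window of JUNB held none of the sequences searched. JUND held the full element TGACGTCA from 200 bases before its start (1.65% of the promoters) and a further core match from 87 bases. EGR1 held 2 CArG boxes, from 105 and 83 bases before its start (1.16% of the promoters), an EGR site from 198 bases (8.41%) and cores from 136 and 67 bases. ATF3 has several start sites, and 2 windows were listed for it. The window at chr1:212565157-212565406 held TGACATCA and TGATGGAA once each (3.15% of the promoters hold TGATGNAA). The window at chr1:212614768-212615017 held none of the sequences searched. TGANTCA was found in none of these windows and in 6.57% of the promoters. Among the genes that fell, FOS carried the TGACGT core in its window, and JUN, JUNB and ATF3 did not. FOSB, JUND and EGR1, which were not called, and FOSL2, which rose, carried it as well. Whether the core bears on these changes was not tested, and a match is not evidence of binding in these cells. Sequence beyond the 250 bases was not searched, so an element absent from a window may lie outside it.

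Genes around the 9 were taken from 8 lists drawn from general knowledge, with earlier results of these data known. Of their 99 genes 90 were measured (each counted once where 2 lists hold it), and 65 were called (18 higher and 47 lower, 72.2%). Of all genes 47.8% were called, 23.3% higher and 24.5% lower. By mean reads the share called was 31.4% from 20 to 60, 51.8% from 100 to 300 and 59.9% to 69.0% from 300 to 3000. The 72.2% of the lists is close to the share of well-covered genes, but the listed genes span all these depths. The shares are therefore not matched in depth. The counts of each list are to be read against the same shares. Among other bZIP factors that pair with JUN, FOS or each other, 2 rose, 5 fell and 3 were not called (median -0.16). JDP2, which pairs with JUN and represses AP-1 sites, moved from 571 to 175 mean reads, -1.62 ± 0.083 on the log2 scale (limma adjusted p = 4.10e-18). BATF, which lacks a transactivation domain and pairs with JUN proteins, fell by 1.40 ± 0.11 (log2 scale, limma adjusted p = 1.40e-12). The small MAF protein gene MAFF fell by 1.35 ± 0.12 (log2 scale, limma adjusted p = 7.03e-12). BATF3 (-1.12) and MAFG (-0.36) were also called lower and MAF (0.41) and MAFK (0.14) higher. BATF3 had low counts, at 34.7 mean reads with DMSO and 15.0 with fostamatinib. MAFK was not called in 5 of the 14 alternative fits.

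SRF and its cofactors act on the CArG boxes of genes such as EGR1, and of this list 4 of 6 fell and none rose (median -0.27), where 66.7% called is near the share of well-covered genes. The log2 fold changes were -0.34 for SRF, -0.56 for ELK3, -0.27 for ELK4 and -0.27 for MKL1. Of the EGR family and its NAB corepressors 3 of 5 were measured. NAB2, which EGR1 induces and which represses it, rose by 0.26 on the log2 scale (adjusted p = 4.40e-03, limma), while EGR2 (-0.62, 95% interval from -1.50 to 0.27, at 11.3 and 7.3 mean reads with DMSO and fostamatinib) and NAB1 (-0.063, from -0.20 to 0.078) were not called. Of 13 kinases and ubiquitin ligase components that act on AP-1 proteins, 5 rose, none fell and 8 were not called (median 0.048). RPS6KA3, the kinase RSK2 that phosphorylates FOS, rose by 0.92 ± 0.044 on the log2 scale, from 9162 to 16179 mean reads (limma adjusted p = 7.93e-19). MAPK3, which encodes ERK1, rose by 0.60, FBXW7, a ligase component that targets JUN, by 0.48, RPS6KA1 by 0.20 and MAP2K7, a kinase of JNK, by 0.19.

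The other immediate early genes did not move one way. Of 21 measured, 10 fell, 7 rose and 4 were not called (median -0.12), against 24.5% lower and 23.3% higher among all genes. IER3 fell by 1.78 ± 0.097 (log2 scale, limma adjusted p = 2.45e-17), SGK1 by 1.70 and CTGF, a matrix protein gene, by 1.68. NR4A2, an orphan nuclear receptor gene, rose from 52.0 to 246 mean reads, by 2.33 ± 0.13 on the log2 scale (limma adjusted p = 7.18e-17). Its relatives NR4A3 (1.83) and NR4A1 (0.55) and the factor KLF2 (1.64) were called higher as well. NR4A3 had low counts, at 14.3 mean reads with DMSO and 48.0 with fostamatinib.

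Of 24 genes known as AP-1 targets 19 were measured, and of these 14 fell, 2 rose and 3 were not called (median -0.79, against 0.002 for all genes). That is 84.2% called, against 47.8% of all genes and 69.0% of those with 1000 to 3000 mean reads. Many of these targets have fewer reads than that. CXCL8, a chemokine gene, fell by 2.62 ± 0.068 (log2 scale, limma adjusted p = 1.33e-26). The secreted phosphoprotein gene SPP1 (-1.82), the cytokine gene LIF (-1.43), the cyclin gene CCND1 (-1.40) and the receptor gene CD44 (-1.20) were also called lower. Many of these genes answer to NF-kB and other factors too, and binding of AP-1 was not measured. Of 10 genes known as EGR1 targets 5 fell, 2 rose and 3 were not called (median -0.37). The share called is near the 69.0% of genes with 1000 to 3000 mean reads. These targets reach from well below to well above that depth, so the shares are not matched. ICAM1 (-1.27) and the tissue factor gene F3 (-0.87) were among the lower ones. ATF4, a stress factor known to act upstream of ATF3, and genes that it or its partners induce were lower in 10 of 10 cases. Of all genes 24.5% were called lower. The median of the list was -0.79. Values ran from -4.28 for CHAC1, -3.08 for ASNS and -1.33 for TRIB3 to -0.69 for ATF4 itself and -0.31 for DDIT3, each called by limma. This list was chosen with earlier results of these data known. Its part in the fall of ATF3 was not tested.

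**Figure D4:**
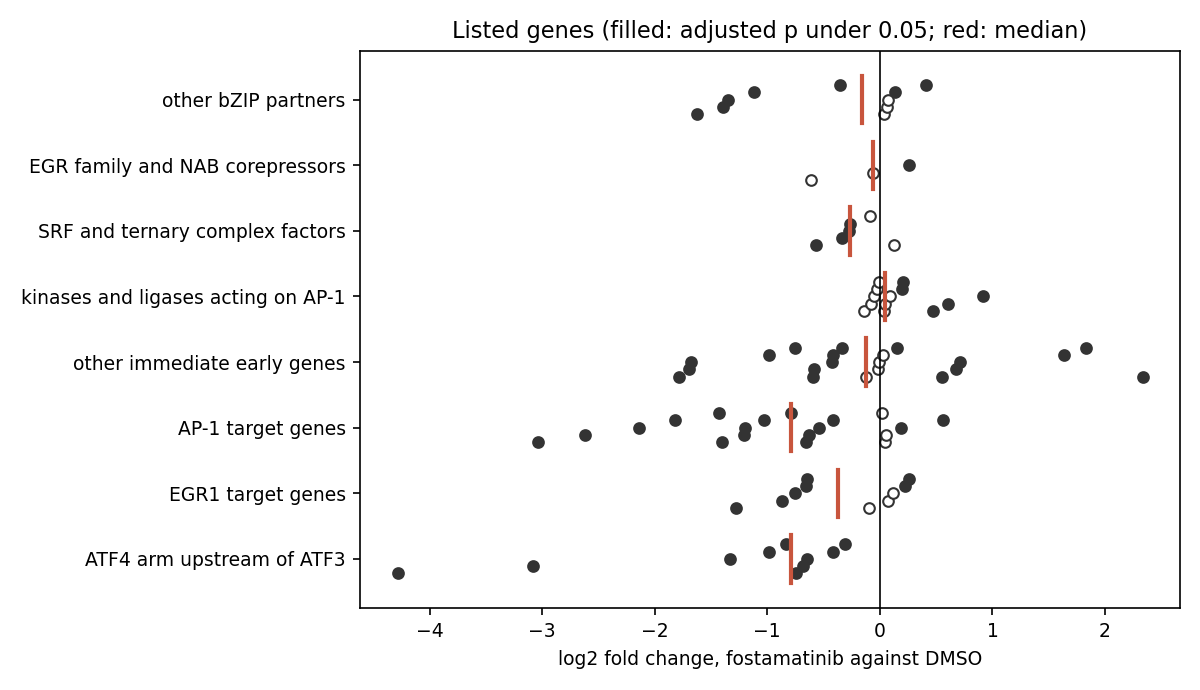
Log2 fold change (x axis) of each measured gene of the 8 lists (y axis), filled where the adjusted p-value was under 0.05, with the median of each list as a red bar. The AP-1 targets and the ATF4 list lay mostly below 0, with medians of -0.79, and the other immediate early genes reached from -1.78 to 2.33.

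Likeness to other genes was measured over the 6 samples as the root mean square difference of log2 CPM, each gene centred on its DMSO mean, among 10356 genes with a symbol and at least 100 mean reads in the higher group. The genes nearest to FOSL1 were PSAT1, an enzyme gene of serine synthesis (difference 0.11), CXCL8 (0.12) and SOCS1, an inhibitor of cytokine signaling (0.20), with log2 fold changes of -2.69, -2.62 and -2.49. The genes nearest to EGR1 were EEF1AKMT2 (difference 0.043), SIX4 (0.048) and ZGRF1 (0.066), none of which was called (adjusted p = 0.366, 0.588 and 0.150 from limma). EGR1 had 27 to 43 reads per sample, so a match to its values is in part a match to counting noise. The measure includes the difference between the groups. The like fold changes, and the lack of calls near EGR1, therefore follow largely from the selection.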

How the data were processed

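RNA-seq was performed on 3 fostamatinib-treated and 3 DMSO-treated samples of Huh7-R cells, grouped by their labels. The authors aligned the reads to hg19 (HISAT), obtained gene counts (featureCounts, GENCODE) and scaled them by TMM. Versions of these tools are not given in the sources used here. No gene in the tables had under 5 reads in 2 or more samples of both groups at once, which was their filter. The deposited values are log2 CPM with 0.5 added to each count, an offset that shrinks the differences of genes at low counts. All values (100%) converted to reads within 0.05 of a whole number.

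limma 3.58.1 (R 4.3.3; lmFit, eBayes with a mean-variance trend, Benjamini-Hochberg adjustment) was applied to all 16305 genes, and genes were called at an adjusted p-value under 0.05. Pooling across genes raised the degrees of freedom from 4 to a median of 33.9, on which very small p-values rest. The fit was also run on simulated counts with far fewer changed genes than here. That run does not give the error rate of the fit in these data. Tables and plots used Python 3.11.15, numpy 2.4.6, pandas 2.3.3, scipy 1.17.1 and matplotlib 3.10.9. Positions, exons and overlaps are from GENCODE on GRCh37 (hg19), and promoters from RefSeq.

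Named were the 9 members, up to 4 genes per list that were called with an absolute log2 fold change over 1 and at least 50 mean reads, and 3 like genes each for EGR1 and FOSL1. A gene that this rule names is not reported here. BATF3, MAFG, MAF, MAFK, the SRF, EGR and kinase list genes, NR4A1, NR4A3, KLF2, CCND1, CD44, F3, ATF4, DDIT3, HOOK2 and the promoter motifs were chosen after their values were seen. The members and lists were chosen with earlier results of these data known. Alternatives were limma-voom on recovered reads, no trend, RLE scaling, library size alone, 2 reads added, stricter filters, the replicate number as a block, another gene length, and leaving out each sample.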

Additional observations from a re-analysis of the deposited data

How the results depend on the processing

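The 6 called members, 5 lower and 1 higher, gave the same counts in each of 14 alternative fits. Only genes that were not called changed direction, in 1 fit each. FOSB turned to -0.044 without DMSO replicate 1 (range -0.044 to 0.441 over the fits that left out a sample), JUND to -0.008 without DMSO replicate 3 (-0.008 to 0.112) and EGR1 to 0.024 without fostamatinib replicate 1 (-0.245 to 0.024). The cause was not tested. The changed genes numbered 7794, 6958 to 7480 when a sample was left out and 6382 without the trend. The called listed genes numbered 62 to 67, and only MAFK of the 39 named ones lost its call, in 5 fits. EGR2 had no value where at least 10 reads were required in every sample. Blocking on the replicate number called 7977 genes and again 6 members. Deviations of same-numbered samples correlated at 0.037, -0.021 and 0.037, and not every sample correlated best with its own number, so the numbers were not taken to pair samples. The 4 composition differences kept their direction in 8 alternatives each, and with same-numbered samples paired their exact sign-flip p was 0.25, the smallest that 3 pairs allow. Depth limits FOSB and EGR1, with 20 to 44 reads per sample.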
